A study of Drosophila melanogaster with 8 samples.

Results

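The telomere-side 1 Mb of 2L, 3L, X and 3R was examined for HP1a in Drosophila melanogaster embryos. A called region was taken as a member when its midpoint lay at 1000000 or lower on 2L, 3L or X, or above 26905053 on 3R (FlyBase release 5). The rule uses position alone and no measured value. It selected 143 of the 5697 regions in the authors' combined set, 37 on 2L, 38 on 3L, 35 on X and 33 on 3R. The same rule selected 98 of 5406 regions in ChIP replicate 1, 111 of 5127 in replicate 2, 86 of 4903 in replicate 3 and 73 of 4260 in replicate 4. No member ran past a sequence end.

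All samples came from embryos of the Oregon-R wild-type strain, staged at 14 to 16 h, and no genotype, treatment or stage was contrasted. Chromatin was precipitated with the HP1a antibody wa191 in 4 ChIP samples, and 4 input samples served as their controls, 1 for each. There is a list of significantly enriched regions for every ChIP sample and a further list, the combined set, for all replicates. The labels do not state if separate embryo collections were used for the replicates, so p-values measure only the spread between these samples, which may be technical. Whole embryos were used, so the lists mix all cell types of the embryo.

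HP1a reads methylated histone H3 through its chromodomain and is a main structural protein of heterochromatin. At Drosophila chromosome ends, arrays of the retrotransposons HeT-A, TART and TAHRE take the place of telomerase-made repeats, and satellite-like telomere-associated sequence lies between them and the genes of the arm. HP1a is also a part of the protein cap that keeps fly chromosome ends from fusing. How much of these repeats the assembled arms contain at each end was not tested here, and the read depth behind the lists is unknown. A base that is not covered may be one to which no read could be placed.

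HP1a coverage was not alike at the 4 ends. The end of 3L was the most widely covered, at 9.44% ± 1.59 of its bases, against 4.82% ± 1.24 for the rest of 3L (SD, n = 4). The 2L end followed with 6.87% ± 1.29, against 4.65% ± 1.08 on the remainder of 2L. The X end had 6.35% ± 1.49, against 6.71% ± 0.816 on the remainder of X. The 3R end had the lowest share, 3.55% ± 1.32, against 4.69% ± 1.14 on the remainder of 3R. The rest of an arm is the arm without its telomere-side 1 Mb and without the 2 Mb at its centromere side, and its covered share, like that of an end, is the percentage of its bases that fall in called regions.

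Within each replicate the end of 3L held 9.99%, 11.4%, 8.49% and 7.87% in replicates 1 to 4, against 5.49%, 6.16%, 4.28% and 3.36% on the rest of the arm. The groups did not overlap, and the end was 1.82, 1.85, 1.98 and 2.34 times as densely covered. The end of 2L held 7.63%, 8.25%, 6.15% and 5.44%, against 5.14%, 5.87%, 4.19% and 3.39% on the rest of the arm. These ranges overlapped across replicates, while within each replicate the end was higher, by 1.97 to 2.49 percentage points. With only the higher-scoring 50% of each list kept, the 2L differences were 2.37, 1.05, -0.0068 and -0.042 percentage points in replicates 1 to 4. Their mean was 0.84, and the excess in 4 of 4 replicates was lost. The cut was the median score of a whole list, which also holds regions outside these arms. Combined-set members under 3 kb overlapped in all 4 replicates stood at a median score percentile of 63.6, 64.3, 33.8 and 20.6 in replicates 1 to 4. In replicates 3 and 4 most of these thus fell below the cut.

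The end of X held 6.43%, 8.29%, 5.97% and 4.70% in replicates 1 to 4, against 6.55%, 7.53%, 7.10% and 5.64% on the rest of X. It was higher in replicate 2 alone. On 3R the end held 4.33%, 4.95%, 2.81% and 2.09%, against 5.30%, 5.92%, 4.17% and 3.37% on the rest of the arm, and was lower within 4 of 4 replicates. On 3R the same cut at the median score of a whole list gave -0.36, -0.39, 0.050 and 0.27 percentage points, with a mean of -0.11. The mean differences over all regions were 4.62 ± 0.447 percentage points for 3L, 2.22 ± 0.253 for 2L, -0.36 ± 0.866 for X and -1.14 ± 0.207 for 3R (SD, n = 4).

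Flipping the signs of the 4 replicate differences in every way (an exact permutation test, two-sided) gave p = 0.125 for 3L, 2L and 3R and p = 0.375 for X. After Benjamini-Hochberg adjustment over 5 tests, the 4 ends and their pool, these were 0.156 and 0.375. With 4 replicates 0.125 is the smallest p that this test can give, so no difference could pass 0.05. The X difference averaged -0.73 percentage points without replicate 2 and -0.10 without replicate 3, and it changed sign with the score threshold. Against the 2 Mb just behind the end it was -2.23 percentage points, lower in 4 of 4 replicates. When only the higher-scoring 50% of a list was kept, it averaged 0.61 percentage points. The 4 ends pooled exceeded the rest of their arms by 1.38 ± 0.404 percentage points (higher in 4 of 4 replicates, exact permutation p = 0.125, adjusted 0.156). Alternatives chosen after seeing the data put the pooled difference at 0.56 without the outermost 25 kb of each arm, 0.10 without the outermost 100 kb and 0.30 without 3L. Without the outermost 25 kb the X end differed from the rest of X by -2.47 percentage points, lower in 4 of 4 replicates.

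The combined set gave other directions on X and 3R. It covered 12.2% of the X end, against 10.7% of the rest of X, and 7.96% of the 3R end, against 7.58% of the rest of 3R. On 3L it covered 13.9%, against 8.09%, and on 2L 10.8%, against 7.67%. In this set the X end was thus above the 2L end, and the 3R end held 33 regions per Mb, against 30.4 on the rest of 3R. These are single values without replicates.

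**Figure D1:**
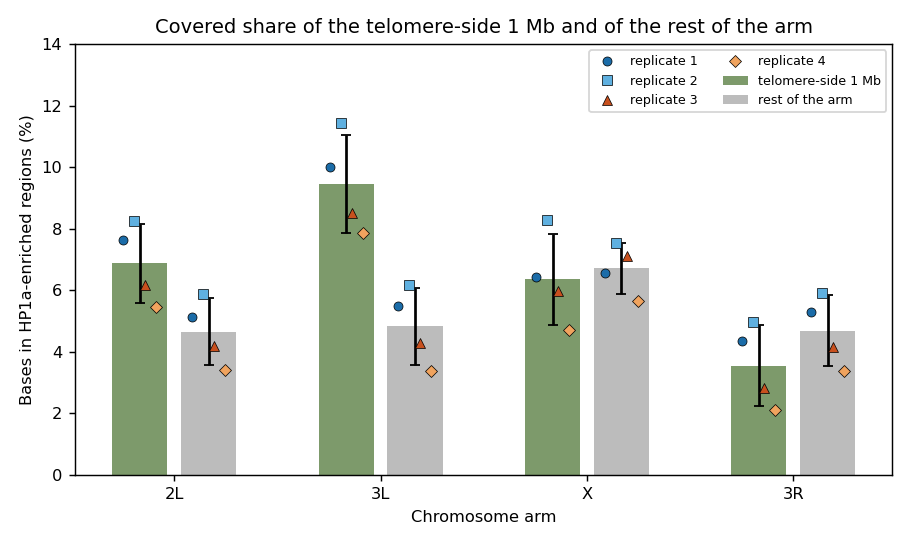
Percentage of bases in HP1a-enriched regions in the telomere-side 1 Mb (green, left) and in the rest of the arm (grey, right) for 2L, 3L, X and 3R. Bars are means over 4 ChIP replicates, error bars are SD, and points are the replicates; on 3L all 4 points of the end, 7.87% to 11.4%, lie above those of the rest of the arm, and on 3R the end averages 3.55% against 4.69%.

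Setting the ends against each other, 3L exceeded 2L by 2.57 ± 0.397 percentage points, X by 3.10 ± 0.428 and 3R by 5.90 ± 0.383 (SD, n = 4), in 4 of 4 replicates each. The 2L end exceeded 3R by 3.32 ± 0.0307 points and the X end exceeded 3R by 2.80 ± 0.566, again in 4 of 4 replicates. The exact sign-flip permutation p was 0.125 for each of these 5 pairs (adjusted 0.15 over 6 pairs), the smallest possible. The 2L end exceeded the X end by 0.52 ± 0.560 points, with 3 of 4 replicates higher at 2L. The exact two-sided permutation p was 0.25 (adjusted 0.25), and these neighbours in the order did not differ beyond their spread.

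Each arm was tiled in windows of 1 Mb from the end, with its centromere-side 2 Mb left out. Among these windows the end window of 3L ranked 1 of 22 by mean covered share and held that rank in 4 of 4 replicates. The end window of 2L ranked 3 of 21, that of X 11 of 20 and that of 3R 19 of 25. The window just behind the end was covered over 6.02% on 3L, 3.27% on 2L, 9.14% on X and 5.57% on 3R. On X and 3R this window was more densely covered than the end window, and on 2L and 3L less.

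The number of regions gave a different order from the number of bases. The 2L end held 30, 34, 29 and 27 regions per Mb in replicates 1 to 4, against 20.1, 21.3, 16.9 and 13.7 on the rest of 2L. The 3L end held 29, 33, 27 and 24, against 23.6, 24.8, 18.9 and 15.3. Both ends were richer in regions within 4 of 4 replicates. The X end held 22, 26, 19 and 14 regions per Mb, against 27.5, 29.7, 30.3 and 24.5 on the rest of X, and the 3R end held 17, 18, 11 and 8, against 22.8, 24.1, 18.6 and 15.4. Both were poorer in regions within 4 of 4 replicates, so the X end reached a covered share close to that of its arm with fewer regions. For each of the 4 arms the exact permutation p was 0.125 (adjusted 0.125 over 5 tests).

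The median width of a region was 2072 bp at the 3L end, 2051 bp at the X end, 2077 bp at the 2L end and 2088 bp at the 3R end. It exceeded that of the rest of the arm by 41.1 ± 56.0 bp on 3L, 1.00 ± 66.9 bp on X, 23.0 ± 24.2 bp on 2L and 38.6 ± 46.8 bp on 3R (SD, n = 4), each less than the SD of the difference. The exact sign-flip permutation p ranged from 0.125 on 2L to 1.0 on X (adjusted 0.417 to 1.0 over 5 tests). A few wide blocks held a large part of the called bases at the ends of 3L and X. Regions over 5 kb held 39.7%, 43.2%, 31.4% and 40.9% of the bases of the 3L members in replicates 1 to 4, and 27.9%, 40.4%, 39.0% and 49.4% of those of the X members. In replicates 1 and 2 they held 18.4% and 16.9% at the 2L end and 12.4% and 23.4% at the 3R end. Neither of these ends had a region over 5 kb in replicates 3 and 4. This share of bases was not computed for the rest of the arms. The widest region of the 3L end spanned 20674, 23171, 26702 and 27027 bp in replicates 1 to 4, against 8203, 11596, 9177 and 8504 bp for the widest on the rest of 3L. On the rest of 2L the widest spanned 13136, 26594, 25033 and 24886 bp. Blocks of similar width thus also lay away from the ends in replicates 2 to 4.

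The median score at the ends differed from that on the rest of the arms by less than its spread between replicates, pooled over the arms. The score is the authors' own value per region, has no stated scale, and is compared only within a list. The pooled difference between the ends and the rest was 0.094, -0.047, -0.00013 and -0.038 in replicates 1 to 4, or 0.0023 ± 0.0642 (SD, n = 4), higher at the ends in 1 of 4 (exact sign-flip permutation p = 1.0, adjusted 1.0 over 5 tests). The largest difference was that of 2L, 0.35, 0.071, 0.098 and -0.045 in replicates 1 to 4 (exact sign-flip permutation p = 0.25, adjusted 0.625). Its mean was 0.12, and 0.041 without replicate 1.

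The most densely covered 50 kb of the end lay from 0 to 50 kb on X, from 50 to 100 kb on 3L, from 350 to 400 kb on 3R and from 450 to 500 kb on 2L, by the mean over replicates. The outermost 25 kb of X held 31.3%, 26.6%, 39.0% and 49.4% of the covered bases of its Mb in replicates 1 to 4, so more than 50% lay farther in within each replicate. In the 200 kb nearest the end, 3L was covered over 28.2%, 30.8%, 17.3% and 19.1% in replicates 1 to 4, against 5.43%, 6.57%, 6.28% and 5.05% from 200 kb to 1 Mb. X was covered over 15.0%, 17.5%, 12.6% and 12.4% in the nearest 200 kb, against 4.28%, 5.99%, 4.32% and 2.77% farther in. On both arms the ranges were apart. On 2L the values were 10.1%, 8.92%, 7.98% and 6.76%, against 7.02%, 8.08%, 5.70% and 5.12%, and the ranges overlapped. On 3R they were 4.05%, 5.94%, 1.05% and 1.79%, against 4.41%, 4.71%, 3.24% and 2.17%, higher near the end in replicate 2 alone.

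The difference between the nearest 200 kb and the stretch behind it was 18.0 ± 6.48 percentage points on 3L, 10.0 ± 1.41 on X, 1.96 ± 0.943 on 2L and -0.42 ± 1.40 on 3R (SD, n = 4). The exact sign-flip permutation p was 0.125 on 3L, X and 2L (adjusted 0.156 over 5 tests) and 0.625 on 3R (adjusted 0.625). On 3R the difference was 0.16 percentage points without replicate 3, 1.08 for a nearest window of 100 kb and 4.23 for one of 400 kb, so its direction depended on these choices. The combined set covered 12.5% of the nearest 200 kb of 3R, against 6.82% of the stretch behind it. The mean X difference rested on the outermost 25 kb. Without that stretch, an alternative chosen after seeing the data, the mean difference was -0.59 percentage points on X, 0.12 on 2L and 15.5 on 3L. On X it stayed positive in replicates 1 and 2 and was negative in replicates 3 and 4. From 100 to 200 kb alone, X was covered over 6.81%, 9.43%, 1.90% and 1.60% in replicates 1 to 4. The excess of the 3L end over the rest of its arm was 1.72 percentage points without the outermost 100 kb.

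In bins of 50 kb, the outermost bin of X was covered over 40.3%, 44.2%, 46.5% and 46.5% in replicates 1 to 4, while the bin behind it held 6.12%, 6.96%, 0% and 0%. The outermost bin of X ranked 1 of 408 such bins on X by mean share. The centromere-side 2 Mb of an arm was left out of this and the other rankings of bins. On 3L the outermost bin held 41.3%, 41.4%, 0% and 0%. The next bin, from 50 to 100 kb, held 45.0%, 46.3%, 53.4% and 56.9% and ranked 1 of 450 bins on 3L. From 100 to 150 kb the 3L share was 19.6%, 28.8%, 9.33% and 16.0%, and from 200 to 250 kb it was 0% in all 4 replicates. Farther in, the bin from 600 to 650 kb held 19.2%, 21.8%, 17.1% and 12.7%.

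On 2L each of the 6 bins of 100 kb out to 600 kb averaged between 7.08% and 10.6%, and the 4 beyond them between 2.05% and 5.16%. The 50 kb bin with the highest mean, 19.1%, lay from 450 to 500 kb and ranked 11 of 420 on its arm outside the centromere-side 2 Mb. At this end 7 of the 20 bins were above the rest of the arm in all 4 replicates and 5 were below it in all 4. No such counts were made on the rest of 2L. The median of the 420 bins was 3.71% by mean share, below the 4.65% of the rest of the arm. Over 10 bins of 100 kb the Spearman correlation of the 2L share with distance was -0.72, -0.70, -0.61 and -0.62 in replicates 1 to 4. On X it was -0.82, -0.73, -0.56 and -0.44, on 3L -0.41, -0.42, -0.28 and -0.055, and on 3R -0.20, -0.29, -0.055 and -0.067. Over 20 bins of 50 kb it was weaker on 2L, at -0.49, -0.28, -0.42 and -0.36, and on X, at -0.64, -0.48, -0.23 and -0.25. These bins gave -0.38, -0.36, -0.071 and 0.047 on 3L and 0.0023, -0.084, 0.14 and -0.062 on 3R. Bins of 1 arm share their libraries and are not replicates, so these are descriptions.

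On 3R the highest bin lay far from the end. From 350 to 400 kb the share was 33.9%, 34.7%, 23.7% and 23.0% in replicates 1 to 4. By mean share this bin ranked 2 of 518 bins on 3R outside the centromere-side 2 Mb. This bin alone held 42.8% ± 8.54 of the covered bases of the 3R end (SD, n = 4). By contrast 13 of the 20 bins at the 3R end were below the rest of the arm in all 4 replicates, and 6 had no called base in any replicate. Such bins were not counted on the rest of 3R. The median of the 518 bins was 3.60% by mean share, below the 4.69% of the rest of the arm. Bins below that level were therefore common along 3R.

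The distance from the end within which 50% of the covered bases of the Mb lay would be 500 kb with even spread. On 3R it was 367, 366, 366 and 363 kb in replicates 1 to 4, inside the cluster just described. On 2L it was 365, 471, 473 and 473 kb. It was 217, 229, 323 and 170 kb on X, and on 3L it was 131 and 141 kb in replicates 1 and 2 and 379 and 272 kb in replicates 3 and 4. On 3L replicates 1 and 2 thus lay nearer the end than replicates 3 and 4.

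**Figure D2:**
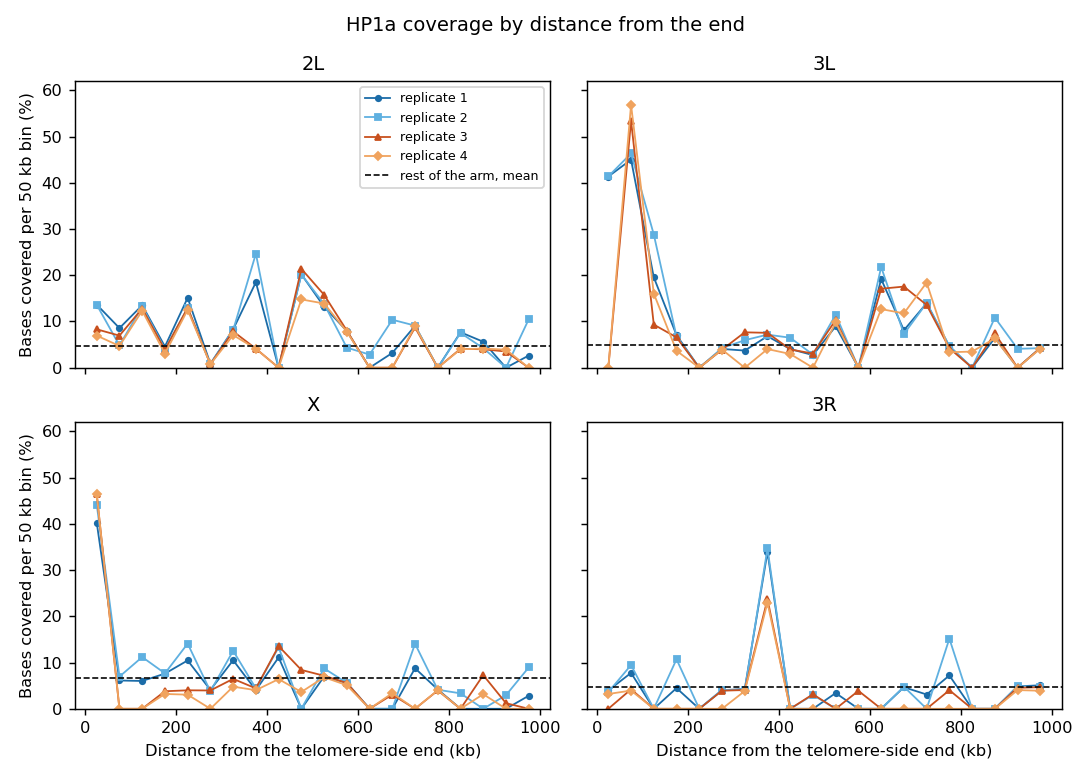
Percentage of bases covered in bins of 50 kb (vertical axis) by distance from the telomere-side end in kb (horizontal axis) for 4 arms, with 1 line per ChIP replicate and a dashed line at the mean of the rest of the arm. The outermost bin is high on X in all 4 replicates (40.3% to 46.5%) and on 3L in replicates 1 and 2 alone, the 50 to 100 kb bin of 3L is high in all 4 (45.0% to 56.9%), and on 3R the highest bin lies from 350 to 400 kb.

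The outermost called sequence differed between arms and, on 3L and 2L, between replicates. On X all replicates opened with called sequence within 0.11 kb of the first base. The block there, in the combined set from 23 to 23628, was covered over 85.3%, 93.6%, 98.4% and 98.5% in replicates 1 to 4, and was followed by 35.3 kb without a called base in any replicate. The replicates broke it into 3, 2, 2 and 2 regions. The highest score among them was 2.05, 2.03, 2.12 and 1.98 in replicates 1 to 4, and the lowest 1.39, 1.70, 1.46 and 1.54. The highest stood at the 91.5, 93.2, 92.5 and 88.9 percentile of its own list, the percentile being the share of regions with that score or a lower one. Here and below, where several regions of a replicate overlap a combined region, the percentile is that of the highest-scoring one, so a wide block has more chances at a high value than a narrow region.

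On 3L the combined set opened with a region of 20719 bp from 5 to 20723, of which replicates 1 to 4 covered 99.8%, 99.8%, 0% and 0%. Its scores in replicates 1 and 2 were 2.06 and 2.33, at the 91.8 and 97.4 percentile. Replicates 3 and 4 began on 3L at 51008 and 51017. Between the 2 outermost 3L blocks lay 30.3 kb that was almost free of called sequence, with 0%, 0%, 0.056% and 0.026% covered in replicates 1 to 4. The block behind the gap, 25031 bp from 51025 to 76055, was covered over 89.9%, 92.6%, 100% and 100%, at the 91.2, 97.5, 92.6 and 91.8 percentile of the scores. Replicate 1 had a further region of 3472 bp there with a score of 1.00.

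The 2L end showed a split between the same replicates, over a shorter stretch and in both directions. Replicates 1 and 2 covered 99.6% and 99.3% of the combined region from 19 to 6870. Replicates 3 and 4 covered 25.5% and 21.3% of it, and their called part began at 5104 and 5103. Farther in, replicates 3 and 4 had a region from 21235 to 23642 and from 21228 to 23240 that replicates 1 and 2 lacked. The scores of the overlapping regions stood at the 89.6 and 86.7 percentile in replicates 1 and 2 and at the 38.0 and 18.5 percentile in replicates 3 and 4. Combined-set regions of 5 kb to under 10 kb on the rest of the 4 arms had median percentiles of 78.6, 75.5, 57.4 and 51.5 in replicates 1 to 4. In the labels replicates 1 and 2 carry the experiment numbers 1914 and 1916 and replicates 3 and 4 carry 2026 and 2027, so the split followed these pairs. Its source was not tested.

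On 3R no replicate had a called region at the end itself. The region nearest the end began 6.18, 4.88, 62.7 and 26.2 kb in, in replicates 1 to 4. The combined set had a region of 1260 bp from 27903318 to 27904577, 0.476 kb from the end, that no replicate list overlapped.

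**Figure D3:**
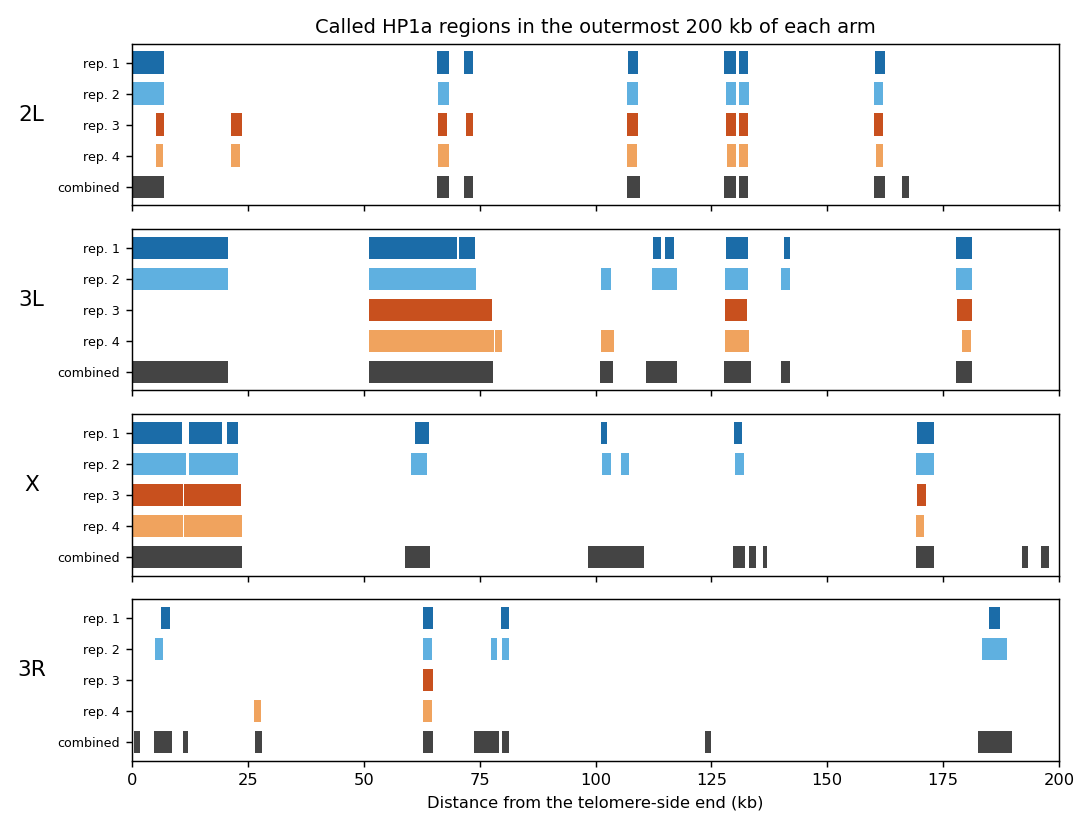
Called HP1a regions (blocks) in the outermost 200 kb of each arm, by distance from the end in kb, for replicates 1 to 4 and the combined set from top to bottom. At the X end the stretch of 23.6 kb that is 1 region in the combined set is 3, 2, 2 and 2 regions in replicates 1 to 4. The block of 20.7 kb at the 3L end appears in replicates 1 and 2 and the combined set alone. On 3R the regions cover 4.05%, 5.94%, 1.05% and 1.79% of the stretch shown in replicates 1 to 4, and 12.5% in the combined set.

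The terminal blocks of 3L and X were each among the 3 regions with the highest combined score at their end. On 2L the 3 highest were 2405 bp from 700760 to 703164 with a score of 2.67, 2244 bp from 245597 to 247840 with 2.41 and 2200 bp from 593764 to 595963 with 2.21. Each was covered over at least 91.1% in every replicate. On 3L the highest was 3750 bp from 880034 to 883783 with 2.44, covered over 85.8%, 98.5%, 99.0% and 84.5% in replicates 1 to 4. It was followed by the terminal block with 2.23 and by 4645 bp from 542198 to 546842 with 2.13.

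On X the highest was 5032 bp from 413713 to 418744 with 2.26, covered over 80.9%, 91.9%, 63.8% and 63.7% in replicates 1 to 4. The terminal block followed with 1.80, and 3123 bp from 547614 to 550736 with 1.64. On 3R the 3 highest all lay between 352 and 392 kb from the end. They were 4364 bp from 27537926 to 27542289 with 2.55, 2267 bp from 27513901 to 27516167 with 2.04 and 3408 bp from 27549406 to 27552813 with 1.87, each covered over at least 91.2% in every replicate. The genes at these positions were not analysed here.

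The region with the highest combined score on 2L stood at the 98.3 and 99.0 percentile of scores in replicates 1 and 2 and at the 62.3 and 72.7 percentile in replicates 3 and 4. The highest on 3R stood at the 99.0, 97.6, 84.3 and 73.9 percentile in replicates 1 to 4. These percentiles were lower in replicates 3 and 4 than in replicates 1 and 2 at both regions. The same held on the rest of the 4 arms, so the drop was not particular to the ends. There the median percentile of combined-set regions under 3 kb was 60.0, 58.4, 35.7 and 25.1 in replicates 1 to 4. For those of 3 kb to under 5 kb it was 75.0, 73.3, 46.0 and 36.3.

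Some of the widest combined-set regions rested on replicates 1 and 2. On 2L the 7627 bp from 358663 to 366289 were covered over 94.6%, 94.5%, 0% and 0% in replicates 1 to 4, and the 7086 bp from 687699 to 694784 over 22.5%, 73.2%, 0% and 0%. On X the 12266 bp from 98307 to 110572, wide as they are, were covered over 11.0%, 28.5%, 0% and 0%. On 3R the 7208 bp from 27715201 to 27722408 were covered over 31.0%, 74.3%, 0% and 0%, and the 5713 bp from 27105799 to 27111511 over 25.2%, 97.6%, 0% and 0%. Of the 16 combined regions of 5 kb to under 10 kb at the 4 ends, 4 were found in all replicates (overlapped by at least 1 bp) and 11 in replicates 1 and 2 alone. On the rest of the 4 arms 66 of 223 regions of that width, or 29.6%, were found in all 4, so the count found in all 4 at the ends was near the background. For replicates 1 and 2 alone, no count by width was made on the rest of the arms. Over all widths, 23 of 143 combined regions at the ends were found in replicates 1 and 2 alone, and 337 of 2803 on the rest.

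**Figure D4:**
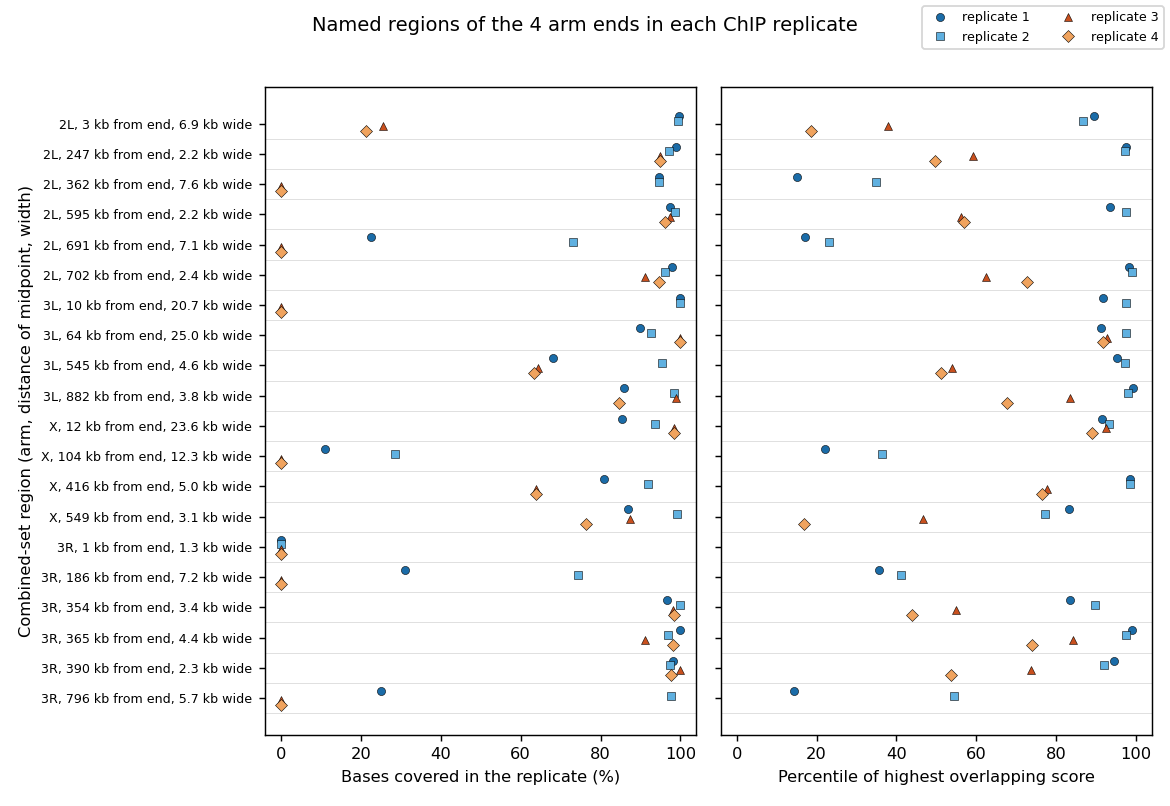
The 20 named combined-set regions of the 4 arm ends, with the percentage of bases covered in each ChIP replicate (left) and the percentile of the overlapping region's score in that replicate's list (right), taken from the highest-scoring overlapping region; a region without overlap has no point on the right. That region lies at or above the 88.9 percentile in all 4 replicates for the terminal X block and the 3L block at 64 kb. The region of 2L at 702 kb is lower in replicates 3 and 4 than in replicates 1 and 2, as is the median of regions under 3 kb on the rest of the arms.

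Over all members, 57 of the 143 combined regions were found in all 4 replicates, or 39.9% (95% Wilson interval 32.2% to 48.0%), and on the rest of the 4 arms 40.2% were. The share at the ends as a whole was thus near the background. By arm, 23 of 37 were found in all 4 at the 2L end, or 62.2% (46.1% to 75.9%), against 41.4% on the rest of 2L. At the 3L end 17 of 38 were, or 44.7% (30.1% to 60.3%), against 38.4%. At the X end 10 of 35 were, or 28.6% (16.3% to 45.1%), against 39.0%, and at the 3R end 7 of 33 were, or 21.2% (10.7% to 37.8%), against 42.2%. The intervals cover counting error only, and the combined set shares its libraries with the replicate lists.

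At the 3R end 13 of the 33 combined regions were found in no replicate, or 39.4% (24.7% to 56.3%), against 13.9% on the rest of 3R. At the X end 11 of 35 were, against 17.3% on the rest of X. At the 2L end 5 of 37 were, against 16.3%, and at the 3L end 2 of 38, against 14.7%. Part of these were narrower than 1301 bp, the width of the narrowest region in any replicate list: 7 of the 13 on 3R and 8 of the 11 on X. Among regions at least that wide, 6 of 26 at the 3R end were found in no replicate, or 23.1%, against 7.70% on the rest of 3R, and 3 of 27 at the X end were, or 11.1%, against 10.0%.

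**Figure D5:**
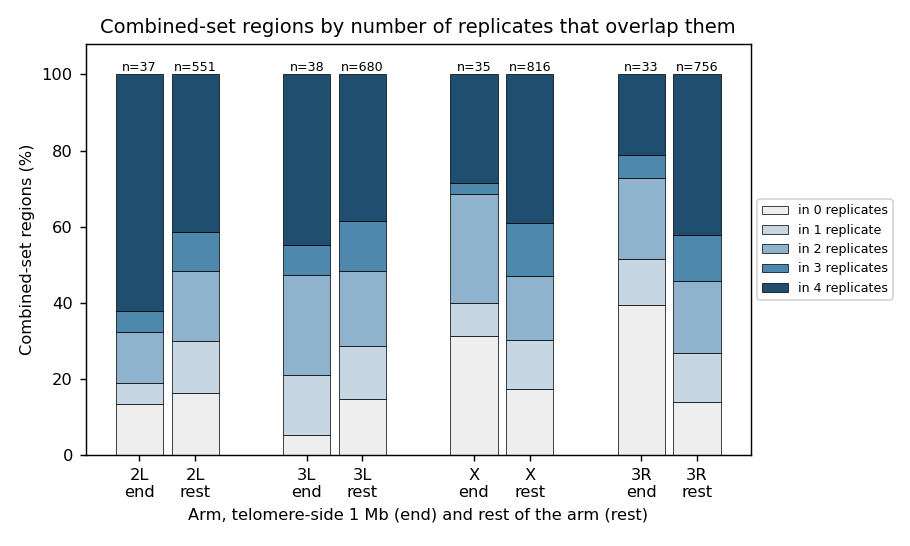
Share of combined-set regions (vertical axis, percent) found in 0 to 4 ChIP replicates, for the telomere-side 1 Mb (left bar of each arm) and the rest of the arm (right bar), with the number of regions above each bar. The darkest part, found in all 4, takes 62.2% at the 2L end and 21.2% at the 3R end, against 41.4% and 42.2% on the rest of these arms.

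By bases, the replicates shared most at the 2L end, where the Jaccard index, the bases called in both lists over those called in either, averaged 0.639 over the 6 pairs of replicates. It averaged 0.603 at the 3L end, 0.567 at the X end and 0.515 at the 3R end, against 0.588, 0.552, 0.565 and 0.593 on the rest of 2L, 3L, X and 3R. At each end the pairs with neighbouring experiment numbers shared most, as they did on the rest of each arm. Replicates 1 and 2 shared 0.763 on 2L, 0.810 on 3L, 0.717 on X and 0.665 on 3R. Replicates 3 and 4 shared 0.787 on 2L, 0.707 on 3L, 0.761 on X and 0.629 on 3R. The pairs across lay between 0.372 and 0.646. On the rest of the arms these pairs shared between 0.621 and 0.744, and the pairs across between 0.429 and 0.582. Bases called in replicates 1 and 2 alone made up 20.6% of all called bases at the 3L end, against 18.9% on the rest of 3L, and 19.2% at the X end, against 9.99%. At the 2L end they made up 17.7%, against 19.5%, and at the 3R end 21.5%, against 18.0%. Bases called in replicates 3 and 4 alone made up 5.55% at the 3L end, against 2.94%, and 6.10% at the X end, against 5.46%. At the 2L end they made up 3.86%, against 2.45%, and at the 3R end 0.092%, against 1.99%.

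Stretches without any called base were measured at the ends alone, so it is not known if they are longer than elsewhere on the arms. The longest stretch that no replicate called was 109 kb on 2L, from 716 to 826 kb from the end, and 89.3 kb on 3L, from 181 to 271 kb. On X it was 93.0 kb and on 3R 110 kb. In replicate 4 alone, 518 kb of the 3R end, from 391 to 909 kb, had no called base.

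At the edge of the rule, the last member on 2L had its midpoint 985 kb and the first region outside 1002 kb from the end, with widths of 1123 and 8752 bp and scores of 0.72 and 0.80. On 3L these midpoints lay at 960 and 1008 kb, on X at 963 and 1028 kb and on 3R at 945 and 1001 kb. The first regions outside on 2L, from 997342 to 1006093, and on 3R, from 26899649 to 26907600, crossed the edge. They are not members, but their bases inside the Mb count in the covered shares.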

How the data were processed

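Per the file headers, the authors deposited lists of significantly enriched regions on FlyBase release 5 coordinates, 1 for each of 4 ChIP samples and 1 combined set. The submitters' processing notes name Bowtie 0.12.7; the caller, its threshold and the way replicates were combined are not stated in what was used here. The authors' score of a region has no unit. The 4 input samples have no list and were not analysed here. No counts were used, and depth is unknown.

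Arm lengths came from the file headers. Covered bases were clipped at window edges, and regions were counted by midpoint. Each arm end was set against the rest of its arm within a replicate, and the 4 differences were tested by flipping their signs in every way (exact, two-sided), with Benjamini-Hochberg adjustment. The named regions were, at each end of the combined set, the region nearest the end, the 3 with the highest score and the 2 widest. Members, tests and rules were chosen with earlier results of these data known. The alternatives without the outermost 25 kb or 100 kb, without 3L and by experiment number were chosen after seeing the data. The code was tested on simulated lists. Python 3.11.15, NumPy 2.4.6, SciPy 1.17.1 and Matplotlib 3.10.9 were used.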

Additional observations from a re-analysis of the deposited data

Results flagged for a closer look

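Dixon's test at the 95% level singled out a replicate in 3 of 55 sets of 4 values, and chance gives about 1 in 20, here 2.75. On 2L, the distance within which 50% of the covered bases lay was 365 kb in replicate 1, while the other 3 ranged from 471 to 473 kb. The median score at the 3L end exceeded that of the rest of 3L by 0.10 in replicate 1, and the other 3 lay between -0.0032 and 0.014. Replicate 2 covered 95.4% of the 3L region from 542198 to 546842, and the other 3 covered 63.3% to 68.2%. The causes were not tested.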

How the results depend on the processing

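No paired analysis was possible because the input samples have no list, as far as ChIP against input goes; the tests above pair each arm end with its own arm within a replicate. Of 323 alternatives to 43 results, 301 left the result as it was, by direction and side of the threshold or within the spread, 16 turned its direction and 6 moved it further. No p could pass 0.05, so for tested results the first count speaks of the direction of the mean alone. It includes the covered shares of the 2L and 3R ends with the higher-scoring 50% kept, where single replicates changed sign. With only the higher-scoring 50% of regions kept, the X end exceeded the rest of X by 0.61 percentage points (main value -0.36) and by 0.092 in median score (main -0.079), 2L minus X was -0.62 points (main 0.52), and the median width at the 2L end differed from the rest by -327 bp (main 23.0). There the share found in all 4 replicates was 17.4% on 2L and 15.4% on X (main 62.2% and 28.6%), the 2L Jaccard index was 0.403 (main 0.639), and the distance holding 50% of covered bases was 68.6 kb on 3L, 18.1 kb on X and 371 kb on 3R. This cut was the median score of a whole list. In replicates 3 and 4 most members under 3 kb found in all 4 replicates fell below it. The width difference on X was -13.0 bp with gaps of up to 1 kb merged, -34.2 bp against the 2 Mb just behind the end and -2.50 bp with 4 Mb left out at the centromere side. The pooled score difference was -0.016 against the 2 Mb just behind. On 3R the nearest 100 kb exceeded the stretch behind by 1.08 points and the nearest 400 kb by 4.23. Without the outermost 25 kb the X difference was -0.59 points. Replicates 1 and 2 alone gave 0.32 points for the X end against its arm and 0.44 for the nearest 200 kb of 3R. Leaving out each replicate gave -0.98 (without replicate 2) to 0.16 points (without replicate 3) for 3R, -30.8 (without replicate 1) to 18.7 bp (without replicate 3) for the X width and -0.028 (without replicate 1) to 0.019 (without replicate 2) for the pooled score. The causes were not tested. Depth is unknown, so the absence of a call does not show the absence of HP1a.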
